A study of Caenorhabditis elegans with 7 samples.

Results

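The soluble guanylate cyclase gene gcy-37 and the globin genes glb-28 and glb-32 were followed in first-stage (L1) larvae of Caenorhabditis elegans. They are the genes of these names among the annotated rows of the authors' deposited value table, 3 of 961 rows with 1 gene and of 1290 rows in all. Each has 1 row, and each row matched 1 spot of the arrays. Samples were 4 of a strain that the labels call ahr-mutant, with a nonfunctional ahr gene, and 3 of the wild type. Neither the allele nor the wild-type strain name is given in the sources used here. Larvae of both strains hatched from harvested eggs on plates with E. coli and liquid, and whole larvae were extracted. Total RNA was copied into Cy3-labelled cDNA and read in 1 colour, with 1 array per sample.

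AHR-1 of worms is the homologue of the aryl hydrocarbon receptor of vertebrates. It is a transcription factor of the bHLH-PAS family and is known to act in the neurons URX, AQR and PQR. These neurons hold soluble guanylate cyclases, haem proteins that make cyclic GMP when oxygen changes and so open cyclic nucleotide-gated channels. GCY-37 belongs to that family and marks these neurons. Globins are haem proteins too and can bind oxygen. The worm has a large globin family, in which the individual functions of glb-28 and glb-32 are less well known. In the WBcel235 annotation gcy-37 lies between C54E4.5 and C54E4.4, glb-28 between nhr-91 and Y15E3A.3, and glb-32 between Y58A7A.5 and C04F5.2.

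Between 21942 and 22593 spots had a positive signal on an array. The file of ahr-mutant replicate 1 lists its spots in another order, and its signals were put back by their likeness to the other arrays for 82.8% of spots. The median strain difference also ran across the slide, from -0.48 on the log2 scale in the first of 12 rows of blocks to 0.52 in the last. Over all 22501 spots tested, 2 passed an adjusted p of 0.05 (0.00889%), and neither is a spot of the 3 genes. The ahr transcript was not analysed here, so the strain labels rest on the submitters. Separate cultures are not stated for the wild type, and p-values then measure only how these samples spread, which may be technical.

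All 3 genes had lower mean signals in the ahr-mutant larvae than in the wild type. glb-32 was 2.43-fold lower, glb-28 2.12-fold lower and gcy-37 1.45-fold lower, and none passed limma's test over all spots. On the normalized log2 scale the strains did not overlap for any of them. Among all spots with 7 values, 4.04% did the same in that direction, and 9.96%, 8.09% and 6.6% did so in slide rows 1, 2 and 3, where gcy-37, glb-32 and glb-28 lie. The 3 genes come from the authors' deposited table, where 53.3% of rows did so in its own ratios. Shares of all spots, here and below, are thus not shares of table rows like these. After adjustment for position on the slide both globins stayed lower without overlap, as did 3.26% of all spots with 7 values. The gcy-37 means then differed by 0.053 on the log2 scale, and its strains overlapped. The adjustment took neighbours of any brightness. For both globins, neighbours of like brightness had a lower median strain difference than all neighbours. In whole larvae, fewer cells of a type and less RNA per cell cannot be told apart.

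**Figure D1:**
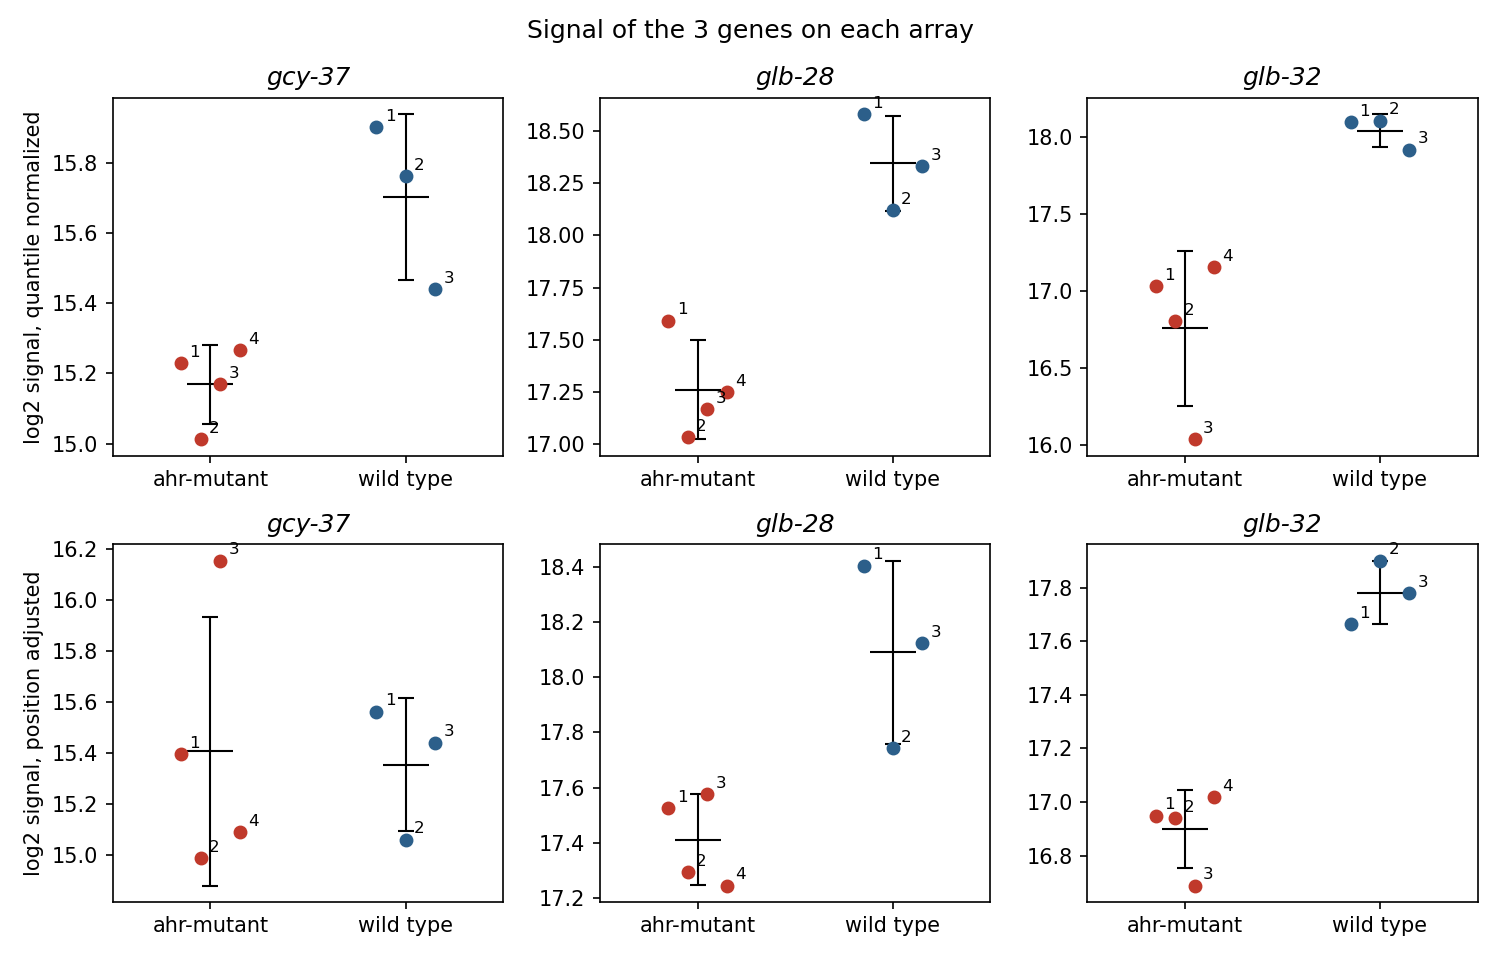
Log2 signals of gcy-37, glb-28 and glb-32 on each array (points, numbered by replicate), with the ahr-mutant arrays left and the wild-type arrays right; bars are means with SD (n = 4 and n = 3). The upper panels hold quantile-normalized signals, where no gene's strains overlap, and the lower panels hold position-adjusted signals, where those of gcy-37 do; each panel has its own scale.

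gcy-37 encodes the cyclase subunit. Its deposited signals were 33743, 38977, 42670 and 49359 intensity units in ahr-mutant replicates 1 to 4, against 51327, 41899 and 43296 in wild-type replicates 1 to 3. These raw signals overlapped, since ahr-mutant replicate 4 exceeded wild-type replicates 2 and 3. Raw signals are not scaled for array brightness. The median signal was 83351 on that mutant array, against 52277 and 66600 on those wild-type arrays. After quantile normalization the mutants held log2 values of 15.23, 15.01, 15.17 and 15.27, against 15.90, 15.76 and 15.44 in the wild type. Normalized values did not overlap, and the nearest arrays were ahr-mutant replicate 4 and wild-type replicate 3. The means were 15.17 ± 0.11 in ahr-mutant larvae (SD, n = 4) and 15.70 ± 0.24 in the wild type (SD, n = 3). Their log2 difference was -0.53 ± 0.30 (SE), with a 95% confidence interval of -1.21 to 0.15, a limma p of 0.110 and an adjusted p of 0.685. In slide row 1, 10.1% of spots had lower means in the mutants at an unadjusted p under 0.05, and 7.58% of all spots had that p in either direction. The exact two-sided permutation test over 35 splits of the arrays gave 0.0286, the smallest p it can give, for this gene and for both globins.

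The gcy-37 spot was dim. Its signal was 2.01 to 2.33 times the array's 1st percentile in the mutants and 2.52 to 3.35 times in the wild type, so a fold may be understated here. The spot falls in the dimmest 0.25 of spots and has no value where these were left out. It lies in slide row 1, where the median log2 difference over 1849 other spots was -0.48. Around it, within 10 spots on each side, 277 neighbours had a median difference of -0.65, and 55.2% of them were as low as gcy-37 or lower. The 82 neighbours within 0.5 of its mean log2 signal had a median of -0.44, with 41.5% as low or lower. The gcy-37 difference thus lay inside the range of its surroundings.

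With the local position adjustment, gcy-37 held log2 values of 15.40, 14.99, 16.16 and 15.09 in ahr-mutant replicates 1 to 4, against 15.56, 15.06 and 15.44 in the wild type. Replicate 3 of the mutants became the highest array, where the neighbours' median deviation was -0.94. The strains overlapped, and the difference was 0.053 ± 0.35 (SE, limma adjusted p = 0.985). Its 95% interval of -0.72 to 0.82 holds folds of up to 1.65 lower and 1.77 higher. Subtracting block medians gave 0.17 (adjusted p = 0.957). The direction of gcy-37 was therefore not settled on these arrays.

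glb-28 is a globin gene whose spot lies in slide row 3. Its signals were 185272, 168192, 207527 and 160527 intensity units in ahr-mutant replicates 1 to 4, against 450838, 203962 and 268790 in wild-type replicates 1 to 3. Wild-type replicate 2 lay just below ahr-mutant replicate 3 in raw signal, so the strains overlapped there, without scaling for array brightness. The normalized log2 values were 17.59, 17.03, 17.17 and 17.25 in the mutants, against 18.58, 18.12 and 18.33 in the wild type. All 4 mutants lay below all 3 wild types. The means were 17.26 ± 0.24 in ahr-mutant larvae (SD, n = 4) and 18.34 ± 0.23 in the wild type (SD, n = 3). The log2 difference was -1.08 ± 0.31 (SE), with a 95% interval of -1.79 to -0.38, a limma p of 0.00682 and an adjusted p of 0.491. An unadjusted p under 0.05 with lower means in the mutants was held by 3.56% of all spots and by 5.33% of those in slide row 3.

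Neighbours of glb-28 were lower in the mutants as well, by less. Their median log2 difference was -0.44 over 354 spots, of which 8.76% were as low or lower. Of the 54 neighbours of like brightness, whose median was -0.60, 14.8% were as low or lower. Position-adjusted log2 values were 17.53, 17.29, 17.58 and 17.25 in ahr-mutant replicates 1 to 4, against 18.40, 17.74 and 18.12 in the wild type. The strains still did not overlap, as in 3.26% of all spots with 7 values in that direction after the adjustment. The difference was -0.68 ± 0.28 (SE), 1.60-fold lower in the mutants, with a limma p of 0.0379 and an adjusted p of 0.736. At that setting 2.95% of spots had lower means at an unadjusted p under 0.05.

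glb-32, the other globin, lies in slide row 2 and had the widest difference of the 3 genes. Its signals were 123830, 144471, 86316 and 152584 intensity units in ahr-mutant replicates 1 to 4, against 304241, 201406 and 207915 in wild-type replicates 1 to 3. It was the only gene of the 3 whose raw signals, not scaled for array brightness, did not overlap. The share of all spots without overlap was not computed on raw signals. After normalization the mutants held 17.03, 16.80, 16.04 and 17.16, against 18.10, 18.11 and 17.92 in the wild type, all on the log2 scale. Replicate 3 was the lowest mutant, and the wild-type arrays lay close together. The means were 16.76 ± 0.50 in ahr-mutant larvae (SD, n = 4) and 18.04 ± 0.11 in the wild type (SD, n = 3). The log2 difference was -1.28 ± 0.36 (SE), with a 95% interval of -2.09 to -0.47, a limma p of 0.00563 and an adjusted p of 0.457. In slide row 2, 10.5% of spots had lower means at an unadjusted p under 0.05.

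Among the 250 neighbours of glb-32 the median log2 difference was -0.36, and 6.4% were as low or lower. Of 51 neighbours of like brightness 13.7% were as low or lower, around a median of -0.65. Adjusted for position, glb-32 held log2 values of 16.95, 16.94, 16.69 and 17.02 in ahr-mutant replicates 1 to 4, against 17.66, 17.90 and 17.78 in the wild type. The SD among the mutants was then 0.14, and replicate 3 stood nearer to the others, where its neighbours had deviated by -0.62. The difference was -0.88 ± 0.26 (SE), 1.84-fold lower in the mutants, with a limma p of 0.00716 and an adjusted p of 0.480. Leaving out any 1 array kept both globins lower with the adjustment, glb-32 between -0.94 and -0.81 and glb-28 between -0.85 and -0.52.

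**Figure D2:**
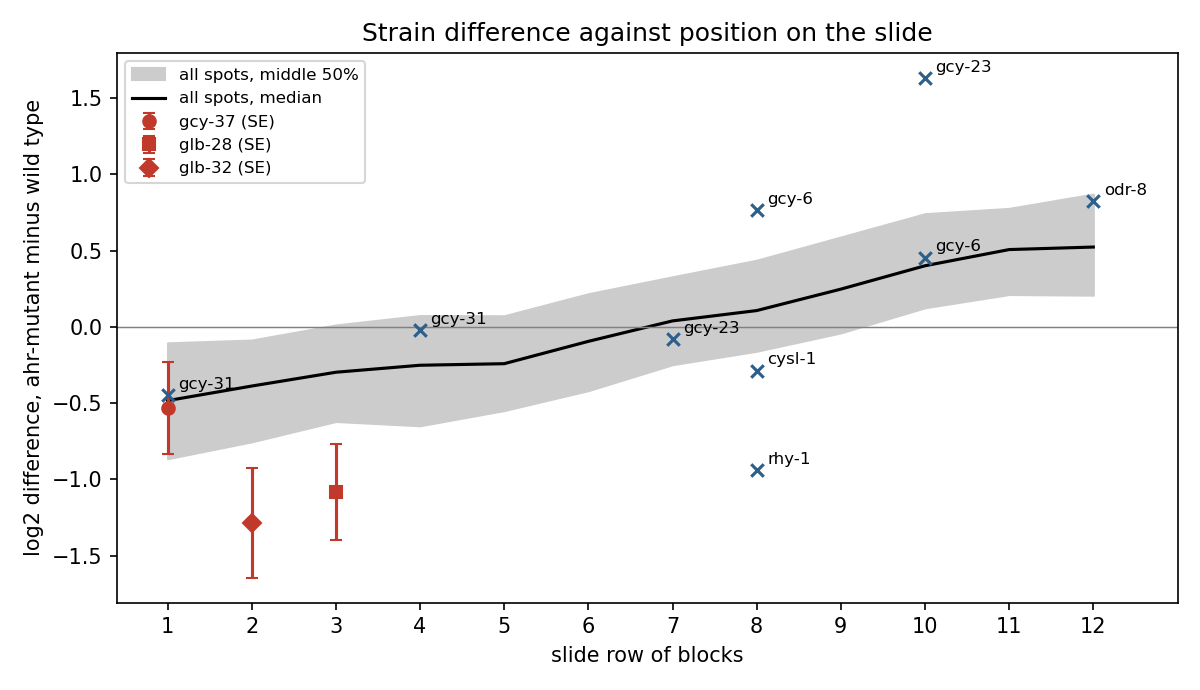
Log2 difference, ahr-mutant minus wild type, against the slide row of blocks; the line is the median and the band the middle 50% of all spots, red points are the 3 genes with SE, and crosses are spots of other listed genes (2 for a gene whose table row is a mean of 2 spots). The median runs from -0.48 to 0.52, gcy-37 lies on it in slide row 1, and both globins lie below the band.

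**Figure D3:**
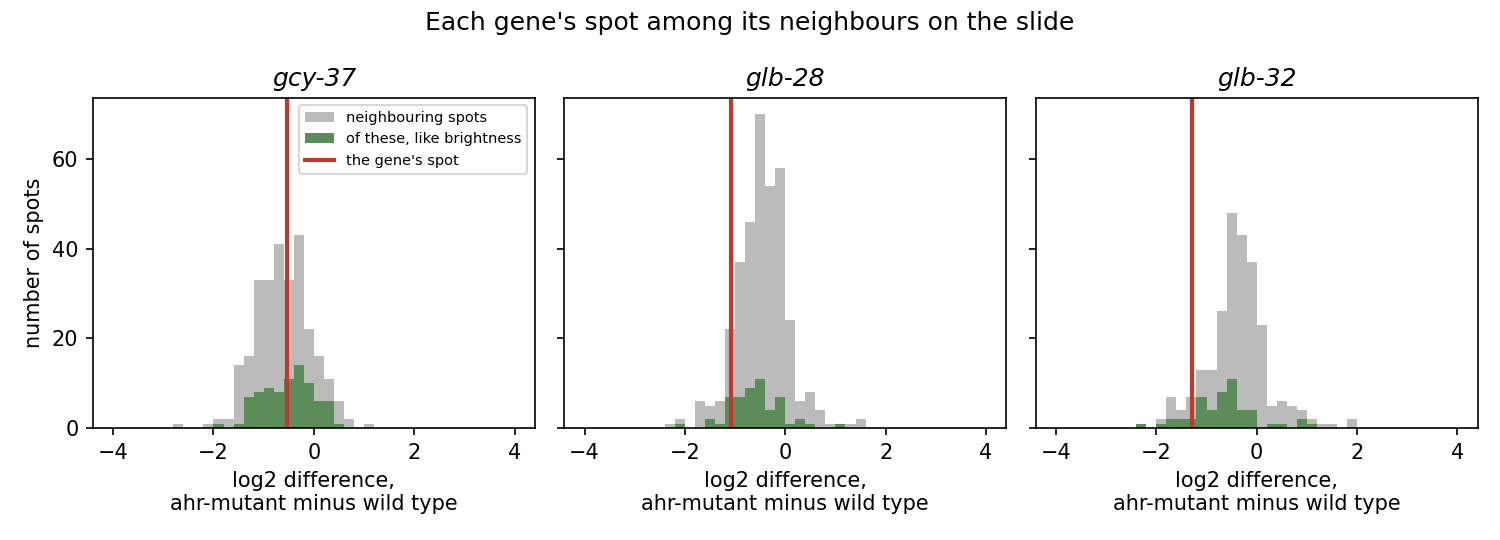
Number of neighbouring spots, within 10 spots on each side, by their log2 difference, ahr-mutant minus wild type; green marks those of like brightness and the red line is the gene's spot. gcy-37 lies near the middle of its 277 neighbours, and glb-28 and glb-32 lie in the lower part of their 354 and 250.

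The labels do not state how the authors' deposited table was made. In rows that matched 1 spot, as for these genes, its values fit each signal times 1 constant per array, divided by a constant per row. That row constant fits the median of the arrays. The authors' deposited table has no value of ahr-mutant replicate 1 for these genes. In the authors' deposited table gcy-37 ratios ran from 0.739 to 1.00 in the other 3 mutants, against 1.10 to 1.44 in the wild type. glb-28 ratios in the authors' deposited table ran from 0.637 to 0.732 in these mutants, against 1.32 to 2.52 in the wild type. For glb-32 the authors' deposited table gave 0.456 to 0.923 in these mutants, against 1.57 to 2.54 in the wild type. The strains did not overlap for any of the 3, which held in that direction for 53.3% of the table's rows. The rows of the table were compared on the same arrays, so the direction of a row lends no independent support.

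The missing ratio of ahr-mutant replicate 1 was computed from its re-placed signal. It came to 0.913 for gcy-37 and 1.00 for both glb-28 and glb-32, where the row median is 1. On the table's scale replicate 1 was thus the highest mutant for both globins and the second highest for gcy-37. On the quantile-normalized scale it was the highest mutant for glb-28, while replicate 4 was higher for glb-32. Without it, a limma fit on the authors' deposited table gave log2 differences of -1.30 for glb-28 and -1.50 for glb-32, and with it -1.16 and -1.37. For gcy-37 the corresponding differences were -0.65 and -0.61. Adjusted over the 1290 rows, limma's p without replicate 1 was 0.0341 for gcy-37, 0.00877 for glb-28 and 0.00781 for glb-32. Of the table's rows 46.6% were lower at that threshold. Of 200 comparable rows whose listed values hold no 1, 198 gave a computed replicate 1 of 1 within 0.0001 on the log2 scale, a check of the re-placed order that its own rule did not use.

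**Figure D4:**
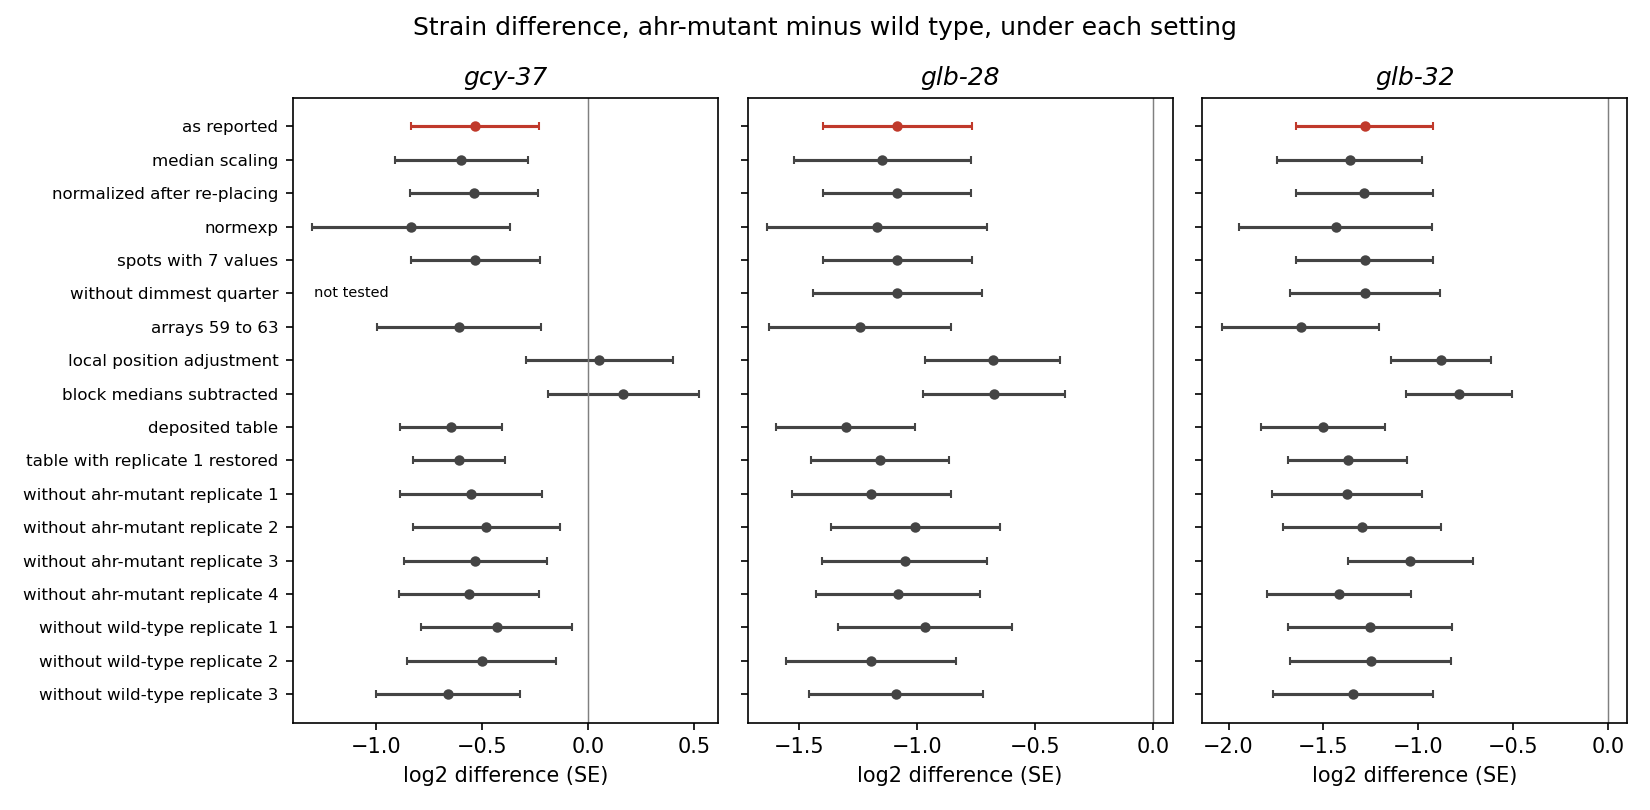
Log2 difference, ahr-mutant minus wild type, with SE for gcy-37, glb-28 and glb-32 under each setting (rows; the reported fit in red). Both globins stay below 0 throughout, at their smallest with the position adjustments, while gcy-37 crosses 0 with both of them and has no value without the dimmest 0.25 of spots.

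For each gene the named genes of most similar signal over the 7 arrays were sought among 691 genes, as a description in which the strain difference itself takes part. The 691 genes come from the authors' deposited table, where 53.3% of rows were lower in the mutants without overlap. A high correlation within such a pool says little. For gcy-37 the most similar genes were pst-2 (Pearson r = 0.974), ptp-5.3 (r = 0.973) and C18A11.1 (r = 0.969). For glb-28 they were R166.2 (r = 0.987), the transporter-family gene snf-5 (r = 0.983) and ssb-1 (r = 0.975). glb-32 was closest to F52E4.5 (r = 0.996), the chemoreceptor-family gene str-4 (r = 0.995) and grd-3 (r = 0.989), a gene of the hedgehog-related groundhog family. After position adjustment only ssb-1 and str-4 remained among the 3 most similar genes, with r = 0.964 to glb-28 and r = 0.987 to glb-32. The 3 most similar genes of gcy-37 were then all others, namely C45G9.8 (r = 0.879), clik-2 (r = 0.850) and ZK177.3 (r = 0.841). The other similar genes were then ugt-2 (r = 0.975) and F56C4.1 (r = 0.957) for glb-28. For glb-32 they were T16H12.2 (r = 0.994) and C18B2.3 (r = 0.9765).

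Of 7 soluble guanylate cyclase genes, 2 had a table row, gcy-37 and gcy-31. Gene names were used only for the table's rows, so a listed gene without a row was not assessed, here or below. gcy-31 encodes a cyclase of the BAG neurons, which respond when oxygen falls. Its row equals the mean of 2 spots, and its place in the table gives it the one in slide row 4. There the log2 difference was -0.02 (limma adjusted p = 0.991), while the spot in slide row 1, measured on 3 mutants, had -0.45 (adjusted p = 0.746) in a row with a median of -0.48. Neither spot passed the test.

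Of 27 receptor-type guanylate cyclases, gcy-6 and gcy-23 had rows, both higher in the table and both means of 2 spots. gcy-6, of the left ASE taste neuron, had its own spot by table order in slide row 10, with a log2 difference of 0.45 (limma adjusted p = 0.715, 3 mutants). Its other spot, in slide row 8, had 0.77 (adjusted p = 0.664). The median log2 difference of all spots was 0.40 in slide row 10 and 0.11 in slide row 8. After position adjustment gcy-6 had 0.28 in slide row 10 and 0.60 in slide row 8, and the strains overlapped at both spots. gcy-23 belongs to the AFD temperature-sensing neurons, and by table order its own spot lies in slide row 7. That spot had a log2 difference of -0.08 (adjusted p = 0.963), with signals of 36540 to 57928 in the mutants, against 25492 to 53540 in the wild type. The other spot of the pair lies in slide row 10, belongs by table order to F09E5.9, and had signals of 182177 to 250225 in 3 mutants, against 36684 to 56762 in the wild type. Its log2 difference was 1.63, 3.10-fold higher in the mutants (limma adjusted p = 0.428), so the higher gcy-23 value of the table rests on that spot. In all, 144 rows equal such means, of 72 pairs of spots.

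Of 33 globin genes, glb-28 and glb-32 were the 2 with rows. Of 17 genes of cyclic GMP signalling, 116 neuropeptide genes and 4 bHLH-PAS genes none had a row. Of 14 genes of oxygen response and aggregation behaviour, odr-8 had one. ODR-8, a protease that helps odorant receptors reach the cilia, had a spot in slide row 12 that was 1.77-fold higher in the mutants (limma adjusted p = 0.632), and its log2 difference of 0.82 was 0.26 after position adjustment, where the strains overlapped. The median of its neighbours was 0.66.

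Of 8 hypoxia pathway genes, rhy-1 and cysl-1 had rows, both lower. RHY-1 and CYSL-1 act upstream of the hypoxia-inducible factor HIF-1. rhy-1 had a log2 difference of -0.94, 1.92-fold lower in the mutants (limma adjusted p = 0.609), in slide row 8, where the median was 0.11. Of the other spots of that slide row 1.11% were as low or lower, and 16.0% of 25 neighbours of like brightness were. The gene is named for its row in the authors' deposited table, where 53.3% of rows were lower without overlap. Its low rank in the slide row therefore lends no independent support. After adjustment the rhy-1 difference was -0.81 (adjusted p = 0.739). The rhy-1 strains still did not overlap, as in 3.26% of all spots with 7 values in that direction after the adjustment. cysl-1 had -0.29 (adjusted p = 0.773), with -0.36 after adjustment, where the strains overlapped. None of the listed genes passed over all spots.

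Of 8 markers of URX, AQR and PQR the table holds gcy-37 alone, of 6 BAG markers gcy-31 alone, and of 11 pan-neuronal markers none. The cell types behind the signals could therefore not be checked, and no muscle, pharynx, intestine or hypodermis marker of the lists has a row. Of 7 sperm and adult markers 4 had rows, namely msp-78, nspd-7, nspd-10 and ssp-19, 3 of them higher in the mutants. Their summed signal ran from 667618 to 4120541 in the mutants, with 1 spot missing on replicate 1, against 262908 to 667586 in the wild type. These raw sums are not scaled for array brightness. Divided by the array's median signal, they were 10.585, 19.771, 45.321 and 12.182 in ahr-mutant replicates 1 to 4. In wild-type replicates 1 to 3 they were 9.512, 5.029 and 10.024. Replicate 3 of the mutants stood highest, while mutant replicates 1 and 4 lay nearer to the wild type. Sperm form in later stages than L1, and the part of these transcripts in the differences of the 3 genes was not tested.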

How the data were processed

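The authors deposited 1 linear intensity per spot and array; the array platform is a spotted one, and scanner, quantification, background treatment and genome build were not stated by the labels or headers. The authors also deposited a table of 1290 rows that hold a ratio, by its fit to the arrays, since the labels do not state how it was made. Annotation supplied for the table names 961 rows. Rows were matched to spots by value within 0.0001 on the log2 scale (1080 rows to 1 spot, 144 to a mean of 2, and 66 to neither). Missing, 0 and negative intensities were left out.

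The spot order of ahr-mutant replicate 1 was rebuilt from runs of 100 or more spots whose signals correlated at 0.7 or above with the other arrays, trimmed by 10 spots per end. A run was dropped if any position in it that exact ratios of the table fix was missed, which removed 2 runs past both limits. Over all runs 373 of 380 such positions were recovered, and full recovery in the kept runs follows from the rule. The runs around the 3 genes held 712, 827 and 772 spots for gcy-37, glb-28 and glb-32, with 6, 12 and 13 such positions. Signals were taken to log2 and quantile normalized before replicate 1 was put in order. limma 3.58.1 in R 4.3.3 (lmFit, eBayes, two-sided, no covariate, Benjamini-Hochberg over 22501 spots with at least 2 values per strain) compared 4 ahr-mutant with 3 wild-type samples. The local position adjustment subtracted a running median, over 21 by 21 spots, of each array's deviation from the spot means. Neighbours of like brightness were added after the values were seen.

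Arrays have no counts; their number limits the precision. Genes named are the 3 genes, every other gene of the lists that has a row, and for each of the 3 the 3 named genes with the highest Pearson correlation over the 7 arrays, before and after position adjustment. Members and lists were chosen with earlier results of these data known. Replicates are numbered by accession order, which does not pair samples. The scripts were tested on simulated data.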

Additional observations from a re-analysis of the deposited data

How the results depend on the processing

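The number of arrays and dim signals limit these values. glb-28 and glb-32 were lower in the mutants under all alternatives run. With all arrays or only those labelled 59 to 63 the signals gave differences from -1.24 to -0.67 for glb-28 and from -1.62 to -0.79 for glb-32, and with the local adjustment and 1 array left out from -0.85 to -0.52 and from -0.94 to -0.81. Leaving out each array gave -1.19 to -0.96 for glb-28, -1.42 to -1.04 for glb-32 and -0.66 to -0.43 for gcy-37. None of the 3 passed limma's adjusted threshold in fits of all spots. The permutation test (0.0286, with differences of -0.53, -1.08 and -1.28 for gcy-37, glb-28 and glb-32) passed 0.05, at the smallest p it can give. A limma fit on the authors' deposited table passed 0.05 too (-0.65, -1.30 and -1.50). With replicate 1 computed, chosen after seeing the data, that fit also passed (-0.61, -1.16 and -1.37, limma adjusted p = 0.0272, 0.0129 and 0.00925). The genes come from that table, where 46.6% of rows were lower at that threshold and 53.3% were lower without overlap. These passes therefore lend no independent support. gcy-37 turned to 0.053 with the local adjustment and to 0.17 with block medians, and ran from -0.20 to 0.19 with the local adjustment and each array left out, also added later; it was 0.057, 0.19 and 0.16 without ahr-mutant replicates 1, 2 and 4, and 0.16 and 0.096 without wild-type replicates 1 and 3. The causes were not tested.

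Only the arrays labelled 59 to 63, where the strains alternate (added later), gave -0.61, -1.24 and -1.62 for gcy-37, glb-28 and glb-32. gcy-31 turned to 0.17 and 0.30 in slide row 1 with the local and block adjustments. In slide row 4 it turned to 0.015 with normexp, 0.34 and 0.31 with these adjustments, 0.24 on arrays 59 to 63, and ran from -0.33 to 0.17 with each array left out. gcy-23 in slide row 7 turned to 0.12, 0.046 and 0.019 with local, block and arrays 59 to 63, and ran from -0.46 to 0.29 with each array left out.

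The 2 spots past the threshold were 0 with median scaling, normalization after re-placing, normexp, the dimmest 0.25 of spots left out, arrays 59 to 63, and each array left out (0 to 0), and 0 to 1 with the local adjustment and each array left out. At an unadjusted p under 0.05, limma called 1705 spots in the reported fit. No paired analysis was possible because the labels give the strains no shared replicate numbers.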
